A study of Mus musculus with 8 samples.

Results

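Glycolysis and hypoxia response genes were followed here as a set of 10 genes of glucose uptake, glycolysis and the response to low oxygen (Slc2a1, Hk1, Hk2, Pfkl, Pfkp, Aldoa, Aldoc, Ldha, Vegfa and Bnip3), out of 18193 genes measured on every array. The members were taken by symbol: 23 probe sets, of 45037 in use, named 1 of them and no other gene, and where a gene had several, its brightest by the mean of the 8 arrays is its main value. Each array held small intestinal RNA of BALB/c mice, 6 to 9 days old: ICC-DMP cells (3 arrays), ICC-MY cells (3 arrays) and tunica muscularis, the muscle coat they lie in (2 arrays). ICC are interstitial cells of Cajal, which pace gut muscle and relay nerve signals to it; DMP stands for the deep muscular plexus and MY for the myenteric plexus, and the labels print only the abbreviations. The mice carry no named transgene or treatment, and the isolation of the cells, the sex of the mice and the number pooled per sample are not given in these sources. The design compares each ICC class with the tissue and the classes with each other.

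Glycolysis splits glucose to pyruvate in the cytosol. Glucose enters through carriers such as the one encoded by Slc2a1 (GLUT1), hexokinases trap it as a phosphate, phosphofructokinases commit it to the pathway, aldolases cleave the sugar, and lactate dehydrogenase turns pyruvate to lactate. Most steps are served by several isozymes from separate genes, which tissues mix differently. When oxygen is low, hypoxia-inducible factors accumulate and raise many of these genes, along with Vegfa, a growth factor for blood vessels, and Bnip3, a mitochondrial protein that takes part in the clearance of mitochondria. These factors bind DNA at a short core within what is called the hypoxia response element. ACGTG is a form of that core, and the only form searched for here.

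The stretches before the RefSeq starts (build GRCm38.p6) of 3 members with a single listed start are shown because Slc2a1 and Hk2 differed between the ICC classes and Bnip3, another gene of the hypoxia response, did not pass in any comparison. Each is the 250 bases before the start on the gene's strand, and capitals mark ACGTG or its reverse complement CACGT. They are, in order, chr4:119108495-119108744 on the plus strand, and chr6:82774455-82774704 and chr7:138909507-138909756 on the minus strand.
Slc2a1: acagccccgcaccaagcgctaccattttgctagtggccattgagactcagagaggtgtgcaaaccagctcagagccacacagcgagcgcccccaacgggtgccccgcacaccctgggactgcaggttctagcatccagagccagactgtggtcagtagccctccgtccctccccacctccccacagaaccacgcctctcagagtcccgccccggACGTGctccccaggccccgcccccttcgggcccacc
Hk2: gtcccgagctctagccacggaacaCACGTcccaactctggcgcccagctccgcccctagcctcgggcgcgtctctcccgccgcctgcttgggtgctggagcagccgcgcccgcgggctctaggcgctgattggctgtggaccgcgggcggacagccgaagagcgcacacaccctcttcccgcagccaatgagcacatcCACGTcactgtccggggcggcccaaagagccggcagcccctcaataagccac
Bnip3: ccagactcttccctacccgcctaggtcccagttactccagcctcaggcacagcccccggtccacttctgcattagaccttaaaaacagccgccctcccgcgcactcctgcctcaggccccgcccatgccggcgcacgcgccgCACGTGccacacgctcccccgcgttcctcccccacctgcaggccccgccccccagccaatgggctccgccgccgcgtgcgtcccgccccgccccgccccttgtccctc

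The match in Slc2a1 begins 36 bases before the start, those in Hk2 226 and 52 bases before it, and the one in Bnip3, where both strands match in 1 overlapping run, 108 bases before it. Matches are a description of the letters and not of binding. Over all 16 windows listed for the 10 members, 7 held a match, against 16.6% of 32851 windows of the same length over all genes. The windows of Aldoa with a match overlap and hold the same site, and by gene 6 of 10 members had a match. The members were chosen as genes of glycolysis and the hypoxia response. A higher share can thus follow from that choice alone and says nothing about these arrays. Hk1, Pfkl, Pfkp and Aldoc had none in these windows, which says only that these letters are not there. Other forms of the core were neither marked nor counted.

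All values are log2 expression values as deposited, so a difference of 1 is a factor of 2. Differences were tested with limma over all genes, and a gene is called where its p, adjusted by Benjamini-Hochberg over all 18193, was under 0.05; every p below is such a limma p. Group values carry the SD over arrays and differences their standard error (SE). Probe sets were spread less widely on ICC-MY replicate 1 and on tunica muscularis replicate 1 than on the other 6 arrays (SD 1.98 and 2.06, against 2.22 to 2.31), and bright genes read low on them. Actin controls had a larger 3' minus 5' difference in ICC-DMP replicate 3 (4.66) and ICC-MY replicate 3 (4.28) than elsewhere (2.53 to 3.53). Kit, the receptor that marks these cells, averaged 11.09 ± 0.25 in ICC-DMP and 11.74 ± 0.83 in ICC-MY (n = 3 each), against 7.82 ± 0.87 in tissue (n = 2), and was called higher in both classes. Kit was 1 of 8 ICC genes read, and not all of them rose: against tissue, 4 were called for ICC-DMP and 6 for ICC-MY. None of the calls was for a lower level. Prkcq, Edn3 and Cacna1h were not called for ICC-DMP against tissue (-0.06, 0.02 and -0.79). Between the classes these 3 were lower in ICC-DMP, and 1 other, Thbs4, was higher. The number of arrays, above all the 2 of tissue, limits the precision. Array medians were 4.18 to 4.30 and no detection call was used, so how much of a level near or under them is background was not tested, and factors against such levels are those of the deposited scale.

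The hexokinase genes differed between the ICC classes in opposite directions: Hk2 was higher in ICC-DMP and Hk1 lower, the call of Hk1 being lost in 5 of 18 alternatives. Of the aldolase genes, Aldoc was higher in ICC-DMP and Aldoa, the brighter one, was not called. Slc2a1 was also higher in ICC-DMP than in ICC-MY. Against tissue, Vegfa was higher in both classes, while the main probe sets of Pfkl, Pfkp, Aldoa, Ldha and Bnip3 passed in no comparison with all arrays as deposited. In ICC-DMP against ICC-MY, 4 of 10 members were called, 3 higher and 1 lower, where 8.67% of all genes were called, 5.36% higher and 3.30% lower. The balance over all genes turned on ICC-MY replicate 1: 976 were higher and 601 lower with it, 872 higher and 968 lower without it, and 1228 higher and 1402 lower with both narrow-range arrays dropped. Arrays of the classes did not overlap for 5 of 10 members and for 25.6% of all genes. The members' median difference was 0.22, and that of all genes -0.02. Members were chosen with earlier results of these data known, so their counts beside those of all genes are no test of the set.

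**Figure D1:**
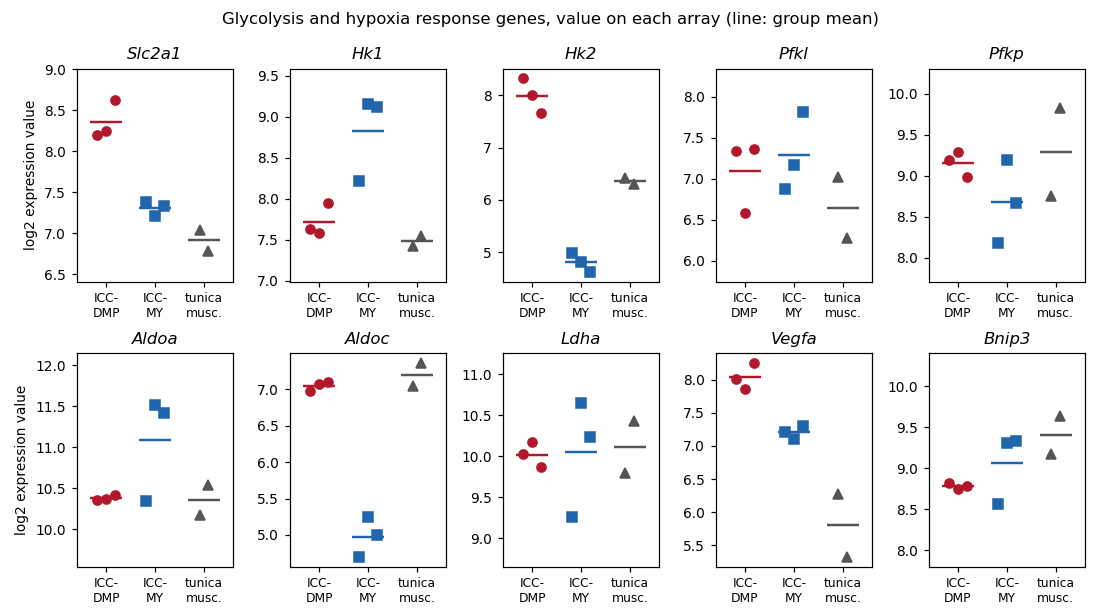
Log2 expression value (y axis) of each of the 10 genes on every array, by group (x axis: ICC-DMP red circles, ICC-MY blue squares, tunica muscularis grey triangles); lines are group means, and each panel has its own scale. Hk2 lay between 7.65 and 8.32 on ICC-DMP arrays and between 4.63 and 4.99 on ICC-MY arrays, with tissue between them.

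Glucose uptake itself was not measured, and the glucose carrier gene among the members was Slc2a1, which encodes GLUT1. It read 8.20, 8.25 and 8.63 in ICC-DMP, 7.38, 7.21 and 7.34 in ICC-MY, and 7.04 and 6.79 in tunica muscularis. No array of one group reached into another, and the order was ICC-DMP, ICC-MY, tissue. ICC-DMP exceeded tissue by 1.44 (SE 0.18, adjusted p = 0.00125), a factor of 2.72, and exceeded ICC-MY by 1.05 (SE 0.16, adjusted p = 0.00438). The difference of 0.40 between ICC-MY and tissue did not pass (SE 0.18, adjusted p = 0.227), with a 95% interval from -0.02 to 0.81. A second, dimmer probe set of Slc2a1 was called in both of the same comparisons, 1.40 higher in ICC-DMP than in tissue (SE 0.29, adjusted p over all probe sets 0.0154) and 1.10 higher than in ICC-MY (SE 0.26, adjusted p over all probe sets 0.0371). The third, with a mean of 4.32, close to the array medians, was not called.

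Hexokinases, which phosphorylate glucose, split by class. Hk2, the form known from insulin-responsive muscle and fat, read 8.32, 7.99 and 7.65 in ICC-DMP, 4.99, 4.82 and 4.63 in ICC-MY, and 6.43 and 6.31 in tissue. All 3 groups were apart, with ICC-DMP above and ICC-MY below the tissue. The difference between the classes was the largest of any member, 3.18 (SE 0.19, adjusted p = 4.68e-05), a factor of 9.05 on the deposited scale. The ICC-MY levels lay within 1 unit of the array medians, so that factor is not a measure of how little Hk2 they held. Hk2 rose by 1.62 in ICC-DMP against tissue (SE 0.22, adjusted p = 0.00177) and fell by 1.56 in ICC-MY against tissue (SE 0.22, adjusted p = 0.00171). The mean of both classes therefore differed from tissue by just 0.03 (SE 0.19, adjusted p = 0.968). Hk2 had 1 probe set.

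Hk1, the form found in most tissues and abundant in brain, ran the other way. It read 7.63, 7.58 and 7.95 in ICC-DMP, 8.21, 9.15 and 9.12 in ICC-MY, and 7.42 and 7.55 in tissue. Every ICC-MY array lay above every other array, and ICC-DMP lay just above tissue. Hk1 was 1.11 lower in ICC-DMP than in ICC-MY (difference -1.11, SE 0.26, adjusted p = 0.0327) and 1.35 higher in ICC-MY than in tissue (SE 0.29, adjusted p = 0.0162), a factor of 2.54. Both calls were close to the threshold: between the classes the adjusted p was 0.0629 to 0.136 without any 1 of ICC-DMP replicates 1, 2 and 3 and ICC-MY replicates 2 and 3, and against tissue 0.0504 to 0.0768 without ICC-MY replicate 2 or 3 or either tissue array. Without both narrow-range arrays they were 0.000781 and 0.00164. The dimmer Hk1 probe set differed by -0.98 between the classes (SE 0.26, adjusted p over all probe sets 0.0627), and 1 further probe set that names Hk1 together with other genes was left out.

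Phosphofructokinases, which commit the sugar to glycolysis, were not called in any comparison by their main probe sets. Pfkl, the liver type, read 7.34, 6.59 and 7.37 in ICC-DMP, 6.88, 7.18 and 7.82 in ICC-MY, and 7.02 and 6.28 in tissue. Pfkp, the platelet type, read 9.19, 9.28 and 8.98 in ICC-DMP, 8.18, 9.19 and 8.67 in ICC-MY, and 8.75 and 9.83 in tissue. The groups overlapped for both genes. The 95% interval of the class difference ran from -0.93 to 0.55 for Pfkl and from -0.28 to 1.22 for Pfkp. With both narrow-range arrays dropped, Pfkp in ICC-MY against tissue was past the threshold (-0.90, adjusted p = 0.0485). Of the dim probe sets, one of Pfkl, with a mean of 4.78, was 0.77 higher in ICC-DMP than in tissue (SE 0.17, adjusted p over all probe sets 0.0235), and one of Pfkp, with a mean of 3.70, was called lower in ICC-MY than in tissue (-0.63, SE 0.14, adjusted p over all probe sets 0.0212) and for the mean of both classes against tissue (-0.50, SE 0.13, adjusted p over all probe sets 0.0356). The third gene of the family, Pfkm, the muscle type, was from the wider list and was 1.18 higher in ICC-MY than in tissue (SE 0.32, adjusted p = 0.0465), a call lost in 7 of 18 alternatives.

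Aldolases cleave fructose bisphosphate. Aldoc, the form best known from brain, read 6.98, 7.07 and 7.10 in ICC-DMP, 4.70, 5.24 and 4.998 in ICC-MY, and 7.04 and 7.36 in tissue. ICC-MY arrays stood alone at the low end, while ICC-DMP and tissue overlapped. Aldoc was 2.07 higher in ICC-DMP than in ICC-MY (SE 0.17, adjusted p = 0.000174), a factor of 4.199, and fell by 2.22 in ICC-MY against tissue (SE 0.19, adjusted p = 0.000151). The ICC-MY levels were not far above the array medians, so these sizes are those of the deposited scale. ICC-DMP and tissue differed by -0.15 (SE 0.19, adjusted p = 0.783), with a 95% interval from -0.59 to 0.29. Its other probe set, at a mean of 2.99, was not called in any comparison.

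Aldoa, the form of muscle and of most other tissues, read 10.36, 10.37 and 10.41 in ICC-DMP, 10.34, 11.51 and 11.41 in ICC-MY, and 10.18 and 10.54 in tissue. ICC-MY replicates 2 and 3 were about 1 unit above all other arrays, and ICC-MY replicate 1, one of the narrow-range arrays, read with the rest. Neither the class difference of -0.71 (SE 0.30, adjusted p = 0.242) nor the 0.73 between ICC-MY and tissue (SE 0.33, adjusted p = 0.221) passed. Without ICC-MY replicate 1 both did, at -1.08 (adjusted p = 0.0038) and 1.11 (adjusted p = 0.00371), and with both narrow-range arrays dropped they did at -1.08 (adjusted p = 0.00101) and 0.93 (adjusted p = 0.00736). Quantile normalization also brought both past the threshold, at -0.92 (adjusted p = 0.00429) and 0.71 (adjusted p = 0.0214). One of its 4 dimmer probe sets was called lower in ICC-DMP than in ICC-MY with all arrays kept (-1.21, SE 0.29, adjusted p over all probe sets 0.0395). All 5 Aldoa probe sets carry the suffix that on this kind of array marks probes shared with other transcripts, so signal from related sequences cannot be told apart from Aldoa.

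**Figure D2:**
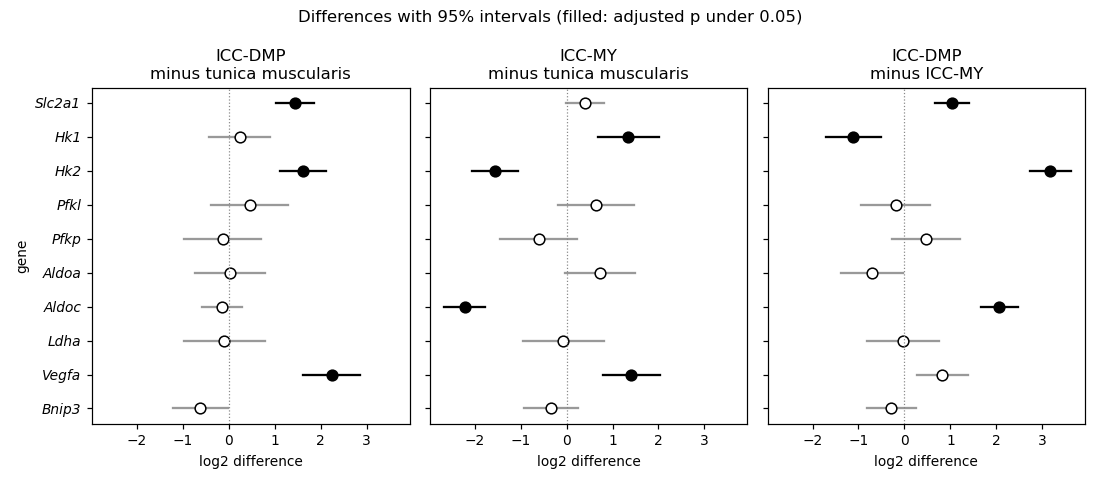
Log2 difference (x axis, to one scale in all panels) of each member (rows) for ICC-DMP minus tunica muscularis, ICC-MY minus tunica muscularis and ICC-DMP minus ICC-MY; bars are 95% intervals and filled points were called. Hk2 lay on opposite sides of 0 in the comparisons with tissue (1.62 and -1.56), and Vegfa lay above 0 in both (2.24 and 1.41).

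Ldha, which makes the lactate dehydrogenase subunit that favours lactate formation, was the member with the smallest difference between the classes with all arrays kept. It read 10.03, 10.17 and 9.87 in ICC-DMP, 9.26, 10.65 and 10.23 in ICC-MY, and 9.80 and 10.44 in tissue. The groups overlapped, and the class difference was -0.03 (SE 0.34, adjusted p = 0.984, 95% interval -0.81 to 0.76). ICC-MY replicate 1 read lowest of all arrays. With both narrow-range arrays dropped, the class difference of Ldha was -0.42, larger in size than that of Pfkp (0.22). Ldhb, the gene of the partner subunit, came from the wider list and was 2.12 higher in ICC-MY than in tissue (SE 0.49, adjusted p = 0.0221), a call lost in 4 of 18 alternatives (1.57, adjusted p = 0.131 without tunica muscularis replicate 1).

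Vegfa, a secreted factor that acts on blood vessel cells, read 8.01, 7.86 and 8.25 in ICC-DMP, 7.22, 7.11 and 7.31 in ICC-MY, and 6.28 and 5.33 in tissue. The 3 groups were apart and the tissue arrays lowest. Vegfa was 2.24 higher in ICC-DMP than in tissue (SE 0.27, adjusted p = 0.00101), a factor of 4.72, and 1.41 higher in ICC-MY than in tissue (SE 0.27, adjusted p = 0.00917), a factor of 2.66. The class difference of 0.83 did not pass (SE 0.24, adjusted p = 0.0804, 95% interval 0.28 to 1.38), but did with the replicate number as a block (0.83, adjusted p = 0.0199). The tissue arrays lay almost 1 unit apart. A dimmer Vegfa probe set had the same signs but was not called (0.59 for ICC-DMP minus tissue, SE 0.18, adjusted p over all probe sets 0.0757).

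Bnip3, a BCL2 family protein of the outer mitochondrial membrane, read 8.82, 8.75 and 8.79 in ICC-DMP, 8.56, 9.31 and 9.33 in ICC-MY, and 9.17 and 9.64 in tissue. ICC-DMP arrays lay below both tissue arrays, and ICC-MY overlapped both groups. The difference of -0.62 between ICC-DMP and tissue did not pass (SE 0.26, adjusted p = 0.21), but did once arrays were quantile normalized (-0.75, adjusted p = 0.00684) or both narrow-range arrays were dropped (-0.85, adjusted p = 0.00905). Its direction against tissue was opposite to that of Vegfa.

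Against tissue, 3 of 10 members were called in ICC-DMP, all higher (Slc2a1, Hk2 and Vegfa), where 11.0% of all genes were called, 3.72% higher and 7.32% lower. Arrays did not overlap there for 5 of 10 members and for 38.5% of all genes. In ICC-MY, 4 of 10 were called, Hk1 and Vegfa higher and Hk2 and Aldoc lower, where 13.8% of all genes were called, 4.05% higher and 9.78% lower, and arrays did not overlap for 5 of 10 members and for 34.2% of all genes. The members' medians were 0.13 in ICC-DMP and 0.16 in ICC-MY, beside -0.04 and -0.02 over all genes. For the mean of both classes 3 members were called, Slc2a1 (0.92, SE 0.16) and Vegfa (1.82, SE 0.24) as higher and Aldoc (-1.19, SE 0.17) as lower, where 13.0% of all genes were called, 3.69% higher and 9.32% lower. Arrays did not overlap for 3 members and for 19.9% of all genes, and the call of Slc2a1 was lost without tunica muscularis replicate 2 (adjusted p = 0.0599). Both comparisons share the 2 tissue arrays. Of the members, 7 of 10 in ICC-DMP and 6 of 10 in ICC-MY did not pass against tissue. As above, the choice of members with earlier results known makes these counts no test of the set.

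**Figure D3:**
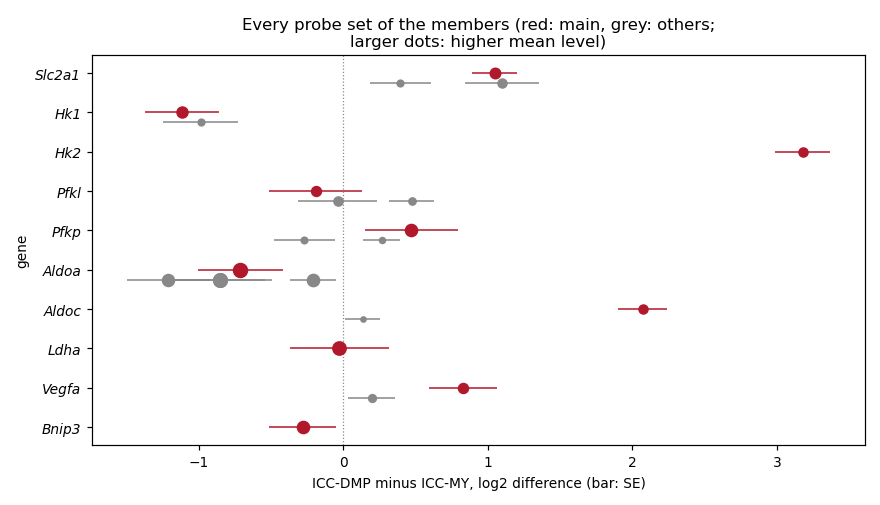
ICC-DMP minus ICC-MY as a log2 difference (x axis, bars are SE) for each of the 23 probe sets of the 10 members (rows); red dots are the main probe sets, grey dots the others, and larger dots have a higher mean level. All probe sets of Slc2a1, Hk1 and Aldoa had the sign of the main one, while the dim second probe set of Aldoc lay near 0 (0.14).

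Markers of other cells, and genes that respond to dissociation, also differed between the groups. For comparison, 8.67% of all genes were called between the classes, 11.0% in ICC-DMP against tissue and 13.8% in ICC-MY against tissue. Of 9 smooth muscle genes, 7 were higher in ICC-DMP than in ICC-MY and 0 lower. Their summed level (log2 of the sum) was 14.2 to 14.5 in ICC-DMP, 11.8 to 13.0 in ICC-MY and 14.3 to 15.4 in tissue. Of 12 immediate early genes, which respond to tissue dissociation among other stimuli, 8 were higher in ICC-DMP than in ICC-MY, and 12 were higher in each class than in tissue. Their summed level was 15.4 to 15.7 in ICC-DMP, 13.7 to 15.1 in ICC-MY and 10.9 to 11.4 in tissue. Whether smooth muscle content or dissociation plays a part in the level of any member was not tested. In ICC-DMP against ICC-MY, 4 of 9 endothelial genes were lower (summed level 6.89 to 7.23 in ICC-DMP, 7.78 to 9.07 in ICC-MY and 8.70 to 9.05 in tissue). Neuronal genes were lower in both classes than in tissue for 10 of 10 (7.02 to 7.12 in ICC-DMP, 7.30 to 7.44 in ICC-MY and 12.2 to 12.9 in tissue). Macrophage genes were lower for 8 of 11 in each class (8.08 to 8.42 in ICC-DMP, 8.50 to 8.60 in ICC-MY and 10.7 to 11.8 in tissue), and mesothelial genes for 6 of 6. Between the classes 0 of 11 macrophage genes and 0 of 6 mesothelial genes were called. These next counts are again those against tissue. Enteric glial genes were lower for 2 of 5 in each class (7.58 to 7.78 in ICC-DMP, 7.22 to 7.51 in ICC-MY and 9.39 to 10.1 in tissue), and red blood cell genes for 1 of 2. Intestinal epithelial genes were lower for 3 of 8 in each class (7.97 to 8.33 in ICC-DMP, 7.91 to 9.11 in ICC-MY and 10.8 to 12.7 in tissue). The tissue arrays stood apart on them: Fabp1 and Fabp2, fatty acid binding proteins of enterocytes, read 6.998 and 7.08 on tunica muscularis replicate 1 and 11.29 and 11.38 on replicate 2, against 2.04 to 2.93 on all ICC arrays. The scale has no true 0, and the part of these cells in the members' values was not tested. A smaller share of a cell type and less RNA per cell cannot be told apart in such samples.

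The rest of glycolysis was read from a list of 27 genes, of which 21 were measured; Gapdh, Gpi1 and Eno1 were among those with no probe set of their own. Between the ICC classes 2 were called, both higher in ICC-DMP, where 8.67% of all genes were called, 5.36% higher and 3.30% lower. Eno3, the muscle enolase, averaged 7.20 ± 0.21 in ICC-DMP and 5.001 ± 0.51 in ICC-MY (n = 3 each), a difference of 2.20 (SE 0.27, adjusted p = 0.0013). Against tissue, Eno3 fell by 1.44 in ICC-MY (SE 0.30, adjusted p = 0.0147, lost in 2 of 18 alternatives). In ICC-DMP against tissue it was not called (0.76, SE 0.30, adjusted p = 0.178). Pdk4, a kinase that shuts off pyruvate entry to the mitochondrion, averaged 9.61 ± 0.11 in ICC-DMP and 7.47 ± 0.47 in ICC-MY, a difference of 2.13 (SE 0.30, adjusted p = 0.00299), and was also 2.40 higher in ICC-DMP than in tissue (SE 0.34, adjusted p = 0.00248). The list's median was -0.19, beside -0.02 over all genes. With the replicate number as a block 6 of its genes were called, where calls over all genes rose from 1577 to 2617.

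Against tissue, 1 of the 21 was higher and 5 lower in ICC-DMP, where 3.72% of all genes were called higher and 7.32% lower. In ICC-MY 2 were higher and 4 lower, where 4.05% of all genes were called higher and 9.78% lower. Slc16a1, a carrier of lactate and other monocarboxylates, fell by 3.49 in ICC-DMP (SE 0.35, adjusted p = 0.000373) and by 3.18 in ICC-MY (SE 0.35, adjusted p = 0.000517). Pdk1, another pyruvate dehydrogenase kinase, fell by 0.90 in ICC-DMP (SE 0.16, adjusted p = 0.00718) and by 1.14 in ICC-MY (SE 0.16, adjusted p = 0.00165). Eno2, the neuronal enolase, fell by 1.63 in ICC-DMP (SE 0.16) and by 2.02 in ICC-MY (SE 0.16), alongside the neuronal markers above. It averaged 3.70 in ICC-DMP and 3.31 in ICC-MY, under the array medians, so the sizes of its falls are those of the deposited scale. Slc2a3, which encodes the carrier GLUT3, fell by 1.67 in ICC-DMP (SE 0.44, adjusted p = 0.0453), a call lost in 6 of 18 alternatives, whereas Slc2a1 rose there. Slc2a4, which encodes the carrier GLUT4, also fell in ICC-DMP, by 0.78 (SE 0.20, adjusted p = 0.041), a call lost in 10 of 18 alternatives.

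The rest of the hypoxia response was read from 26 further genes, of which 22 were measured. Of these, 4 were higher and 3 lower in ICC-DMP than in tissue, where 3.72% of all genes were called higher and 7.32% lower. In ICC-MY 1 was higher and 5 lower than in tissue, where 4.05% of all genes were called higher and 9.78% lower. Bhlhe40, a transcriptional repressor, was higher in both, by 2.03 in ICC-DMP (SE 0.31, adjusted p = 0.00393) and 1.43 in ICC-MY (SE 0.31, adjusted p = 0.0178, lost in 5 of 18 alternatives). Egln3, an oxygen-sensing prolyl hydroxylase, was 1.42 higher in ICC-DMP (SE 0.35, adjusted p = 0.0347), a call lost in 5 of 18 alternatives. Rora was 1.61 higher there (SE 0.31, adjusted p = 0.0123, lost in 2 of 18) and Cited2 1.495 higher (SE 0.38, adjusted p = 0.0425, lost in 6 of 18). Ndrg1 fell by 2.06 in ICC-DMP (SE 0.34, adjusted p = 0.0055) and by 2.75 in ICC-MY (SE 0.34, adjusted p = 0.000963), and Car12, a carbonic anhydrase, by 2.47 (SE 0.26, adjusted p = 0.000485) and 3.17 (SE 0.26, adjusted p = 0.0001) in the same order. Car12 averaged 3.65 in ICC-DMP and 2.95 in ICC-MY, under the array medians, against 6.12 in tissue, so the sizes of its falls are those of the deposited scale. Plod2 fell by 1.28 in ICC-MY (SE 0.35, adjusted p = 0.0465, lost in 11 of 18 alternatives). Angptl4 fell there by 1.13 (SE 0.31, adjusted p = 0.0437, lost in 10 of 18) and Ankrd37 by 1.03 (SE 0.28, adjusted p = 0.0475, lost in 10 of 17). P4ha2 fell by 1.56 in ICC-DMP (SE 0.25, adjusted p = 0.00537), where it averaged 4.04, also under the medians. Genes of this list thus went both ways against tissue, with medians of 0.20 in ICC-DMP and -0.07 in ICC-MY beside -0.04 and -0.02 over all genes.

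Between the ICC classes 3 of the 22 were called, where 8.67% of all genes were. With the replicate number as a block 8 were called, where calls over all genes rose from 1577 to 2617. Angptl4, a secreted inhibitor of lipoprotein lipase, averaged 9.04 ± 0.36 in ICC-DMP and 6.998 ± 0.32 in ICC-MY (n = 3 each), a difference of 2.04 (SE 0.27, adjusted p = 0.00213). Stc2, a secreted glycoprotein, was 0.78 higher in ICC-DMP (SE 0.19, adjusted p = 0.0383), also lost in 5 of 18. P4ha2, a subunit of collagen prolyl hydroxylase, averaged 4.04 ± 0.43 in ICC-DMP and 5.50 ± 0.23 in ICC-MY, a difference of -1.46 (SE 0.23, adjusted p = 0.00467).

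Among 9 genes of the oxygen-sensing machinery, 2 were called between the classes, in opposite directions, where 8.67% of all genes were called. Epas1, which encodes HIF-2 alpha, read 8.03, 7.90 and 7.95 in ICC-DMP, 8.94, 9.68 and 9.56 in ICC-MY, and 6.00 and 7.33 in tissue. No groups overlapped. It was lower in ICC-DMP than in ICC-MY (-1.43, SE 0.33, adjusted p = 0.0333, but 0.106 to 0.125 without any 1 of ICC-DMP replicates 1, 2 and 3 and ICC-MY replicates 2 and 3) and 2.73 higher in ICC-MY than in tissue (SE 0.37, adjusted p = 0.00162). Arnt2, a partner of these factors best known from brain, read 6.04, 6.19 and 6.32 in ICC-DMP, 4.17, 4.63 and 4.77 in ICC-MY, and 7.15 and 6.29 in tissue. It was 1.66 higher in ICC-DMP than in ICC-MY (SE 0.25, adjusted p = 0.00398), though not with its probe sets averaged (0.43, adjusted p = 0.0918). Against tissue, Arnt2 fell by 2.20 in ICC-MY (SE 0.28, adjusted p = 0.00113) and was not called in ICC-DMP (-0.54, SE 0.28, adjusted p = 0.339). Its ICC-MY levels lay near the array medians, so the sizes are those of the deposited scale. Hif1a, which encodes HIF-1 alpha, is set mainly by protein stability; it averaged 10.50 ± 0.24 in ICC-DMP, 10.19 ± 0.52 in ICC-MY and 9.81 ± 1.12 in tissue, and passed in no comparison. In ICC-DMP against tissue 0 of the 9 were called by limma, where 11.0% of all genes were, and 2 had an unadjusted p under 0.05. Egln1, the main oxygen-sensing prolyl hydroxylase, differed there by -0.14 (SE 0.34, adjusted p = 0.908).

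**Figure D4:**
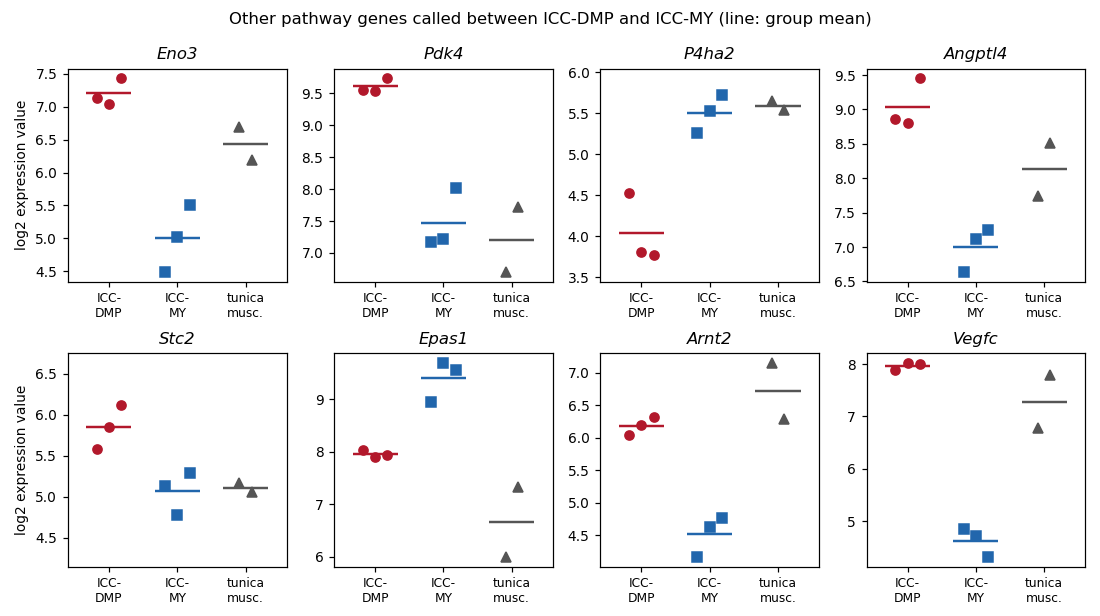
Log2 expression value (y axis) on every array, by group (x axis), of the 8 other pathway genes called between ICC-DMP and ICC-MY; lines are group means and each panel has its own scale. Vegfc lay between 7.89 and 8.02 on ICC-DMP arrays and between 4.32 and 4.86 on ICC-MY arrays, and P4ha2 and Epas1 were the 2 lower in ICC-DMP.

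Of 7 other genes of the VEGF system 1 was called between the classes, where 8.67% of all genes were. It was Vegfc, a growth factor of lymphatic vessels. It read 7.89, 8.02 and 8.005 in ICC-DMP, 4.86, 4.72 and 4.32 in ICC-MY, and 6.78 and 7.78 in tissue. ICC-MY was far below both other groups, and the difference between the classes was 3.34 (SE 0.26, adjusted p = 0.000127). The ICC-MY levels lay near the array medians, so the sizes of differences against them are those of the deposited scale. Vegfc fell by 2.65 in ICC-MY against tissue (SE 0.29, adjusted p = 0.000517), opposite to Vegfa. Nrp1, a co-receptor of VEGF, was higher in ICC-DMP by 1.84 (SE 0.35, adjusted p = 0.0118) and in ICC-MY by 1.53 (SE 0.35, adjusted p = 0.0228) than in tissue, calls lost in 1 and 4 of 18 alternatives. In ICC-MY, Nrp2 was 1.97 higher than in tissue (SE 0.42, adjusted p = 0.0157, lost in 3 of 18). Vegfb was 1.35 higher there (SE 0.34, adjusted p = 0.0321, lost in 7 of 18). Kdr, the main VEGF receptor of endothelium, fell by 1.67 in ICC-DMP against tissue (SE 0.41, adjusted p = 0.035), a call lost in 8 of 18 alternatives.

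The genes whose pattern was most like each member's were found by the root mean square difference over the 8 arrays, after centring each gene on its own mean, among genes with an SD of at least 0.5. Hoxb4 followed Slc2a1 within 0.037 log2 units, Rbm7 followed Pfkp within 0.076, Ogdh followed Hk1 within 0.093, and Ppp1r14b followed Aldoa within 0.107. Scube2 was nearest to Aldoc (0.19) and Pcsk6 to Hk2 (0.28). Vegfa had the least close neighbour, Mpped2, at 0.325. These are descriptions of 8 arrays in 3 groups, chosen from 4389 or 4390 genes, and no member was the nearest gene of another.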

How the data were processed

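The deposited file gives a log2 expression value for each probe set on each array. The submitters' processing notes name RMA and limma, with no version or role, and do not say whether arrays were normalized together. RNA was, per the labels' protocols, amplified from oligo(dT) and then again from random primers before labelling with biotin. Groups came from sample titles, which call the samples biological replicates without saying whether animals differ, so p-values measure the spread between samples. Of 45101 probe sets, 64 controls were left out; 34945 named 1 gene, 932 several and 9160 none in the platform annotation. No added normalization or filter was used. limma 3.58.1 in R 4.3.3 fitted 3 groups (residual degrees of freedom 5, prior 3.17), 1 probe set a gene, and was tested on simulated data. Correlations of deviations were 0.155 to 0.608 over the 7 same-numbered pairs of arrays and -0.608 to 0.169 over the other pairs. Both narrow-range arrays carry the number 1, and the labels do not say that numbers pair samples. Whether the numbers mark a pairing was not tested. The main fit left them out, and the replicate block is given as an alternative only. Members and lists were chosen with earlier results of these data known. Named genes were all members and, of each wider list, those called between the classes. Against tissue, up to 4 called per direction in each comparison were named, those with the largest differences. Where none was called, the brightest pair was named (Hif1a and Egln1). The alternatives were quantile normalization, median centring, a filter on dim genes, averaged or separate probe sets, array weights, limma's trend option, only the groups compared, the replicate block, and leaving out each array or both narrow-range arrays.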

Additional observations from a re-analysis of the deposited data

Results flagged for a closer look

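Of the members, 4 differed between the ICC classes by limma's test of ICC-DMP minus ICC-MY, which is also the difference between their shifts from the shared tissue arrays. These were Hk2 (3.18), Aldoc (2.07), Slc2a1 (1.05) and Hk1 (-1.11). Hk2 was the one of them called in opposite directions against tissue.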

How the results depend on the processing

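The calls of Hk2, Aldoc and Slc2a1 between the ICC classes held in 18 of 18 alternatives each, as did those of Hk2, Slc2a1 and Vegfa in ICC-DMP and of Hk2, Aldoc and Vegfa in ICC-MY against tissue; Hk1 held in 13 of 18 in both of its comparisons. No call changed sign. Leaving out 1 array at a time gave 3 members called in ICC-DMP against tissue every time, 3 to 5 in ICC-MY against tissue, 3 to 5 between the classes and 2 to 5 for the mean of both classes. Between the classes 7 members were called without the narrow-range arrays; for the mean of both, 5 were called there and 5 under quantile normalization. The replicate block changed no other member's call than that of Vegfa between the classes.

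Genes called over all 18193 numbered 2009 in ICC-DMP against tissue, 2516 in ICC-MY against tissue, 1577 between the classes and 2366 for the mean. In that order they were 3021, 3856, 2557 and 3683 under quantile normalization, and 3977, 4452, 2638 and 4467 with every probe set naming 1 gene tested. With dim genes removed they were 1109, 1629 and 1389 against tissue (ICC-DMP, ICC-MY and mean). Fitting only 2 groups gave 1520 for ICC-MY against tissue. Between the classes there were 2617 with the replicate block, 2646 with array weights and 2630 once both narrow-range arrays were dropped. Leave-one-out counts ran from 1264 to 2480, 1965 to 2960, 991 to 1840 and 1747 to 2971. Of genes called in ICC-MY against tissue 29.3% were higher, 41.4% under quantile normalization, 42.4% without ICC-MY replicate 1 and 17.7% without tunica muscularis replicate 1; for the mean these were 28.4%, 40%, 38.3% and 15.8%. In ICC-DMP against tissue 33.7% were higher, with a range from 23% (without tunica muscularis replicate 1) to 48.2% (dim genes removed). Between the classes 61.9% were higher, with a range from 46.7% (without the narrow-range arrays) to 67.2% (without ICC-MY replicate 2). The causes were not tested.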
